A study of Mus musculus with 20 samples.

Results

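The genes described here make, sense, move and store cholesterol. They are 31 genes fixed by name, and a gene was included when a non-control probe of the array carried its symbol or, for Msmo1, the older symbol Sc4mol. All 31 were measured, out of 14566 genes with a symbol that passed the filter on dim signals. The rule that matched them to probes used names only, but the list was chosen with earlier results of these data known. The list holds 19 enzymes, 4 genes that control the transcription factor SREBP2, and 8 genes of intracellular transport, esterification and lipoprotein exchange. Scarb1, the HDL receptor, is its lipoprotein receptor.

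The livers came from male C57BL/6J mice (strain given as C57BL/6 in the sample labels), aged 6 weeks, that all received a diet with 60% of its energy from fat from weaning on. The non-responder group, 10 livers, was labelled resistant to diet-induced obesity, and the responder group, 10 livers, susceptible to it. Both groups were of the same strain, and the criterion that sorted mice into groups, the hour of collection and the feeding state were not given in the sources used here. No mice on a standard diet were analysed here. Each liver was hybridised to 1 Agilent array with a single dye, and the labels do not say more about how samples relate to mice or cages, so p-values cover just the variation among these 20 samples, which may be technical.

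Hepatocytes build cholesterol from acetyl-CoA. The mevalonate steps lead to isoprenoid units and farnesyl diphosphate, and the squalene and sterol steps join and cyclise these and then trim the ring into cholesterol. When sterol in the endoplasmic reticulum falls, the escort protein Scap carries SREBP2, the product of Srebf2, to the Golgi for cleavage, and the freed factor turns on the enzymes and Insig1, whose product holds Scap back when sterol is plentiful. SREBP2 is known to bind sterol regulatory elements together with NF-Y, a factor that recognises CCAAT boxes.

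Promoter windows from RefSeq (build GRCm38.p6, 250 bases before to 50 after a start) were matched by symbol for 24 of the 31 members. The windows of Fdps, Fdft1, Sqle, Stard4, Npc1, Soat2 and Scarb1 had no entry. Some genes have several starts, so these 24 members had 30 windows. CCAAT, searched on both strands, occurred in 21 of the 30 windows (70%) against 37.4% of all 32851 windows, and 2 or more times in 12 of the 30 against 11.7%. Counted by gene, 21 of the 24 members held it in at least 1 window, against 41.1% of all 27025 symbols, and 12 held it 2 or more times in 1 window, against 13.3%. Among the 16 enzymes with a window, 15 held CCAAT at least once and 10 held it 2 or more times. Of the 4 transport members with a window 3 also held it, as did 3 of the 4 control genes, so the box was not limited to the enzymes. The sterol regulatory element letters TCACNCCAC, searched on both strands, occurred in 1 of the 30 windows, that of Hmgcs1, against 1.24% of all windows. A match is a description of these letters and no match says nothing about binding.

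The bases before the start are shown for Hmgcs1, the gene that the other members were compared with, for Mvd, Msmo1 and Idi1, which followed it most closely across livers, and for Npc2, which ran against it over all 20 livers, though not in each slide series. They lie at chr13:119690101-119690350 (plus strand) for Hmgcs1, chr8:122443423-122443672 (minus) for Mvd, chr8:64733579-64733828 (minus) for Msmo1, chr13:8885356-8885605 (plus) for Idi1 and chr12:84773113-84773362 (minus) for Npc2. Capitals mark CCAAT or its complement ATTGG and, in Hmgcs1, the letters TCACCCCAC.
Hmgcs1: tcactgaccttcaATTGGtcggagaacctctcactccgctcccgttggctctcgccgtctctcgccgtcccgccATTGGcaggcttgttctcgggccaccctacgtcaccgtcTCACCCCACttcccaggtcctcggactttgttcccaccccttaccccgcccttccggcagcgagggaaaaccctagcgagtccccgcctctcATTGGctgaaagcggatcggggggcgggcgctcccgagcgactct
Mvd: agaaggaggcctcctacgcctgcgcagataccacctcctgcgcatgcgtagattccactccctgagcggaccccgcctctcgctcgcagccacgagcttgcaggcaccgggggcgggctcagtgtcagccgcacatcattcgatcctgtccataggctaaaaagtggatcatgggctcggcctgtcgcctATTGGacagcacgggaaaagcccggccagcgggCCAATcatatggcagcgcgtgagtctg
Msmo1: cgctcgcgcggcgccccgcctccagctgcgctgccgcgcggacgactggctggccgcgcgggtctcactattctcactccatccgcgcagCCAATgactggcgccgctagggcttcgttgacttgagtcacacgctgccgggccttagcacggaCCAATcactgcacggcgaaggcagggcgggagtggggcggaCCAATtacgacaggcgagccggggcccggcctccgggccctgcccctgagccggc
Idi1: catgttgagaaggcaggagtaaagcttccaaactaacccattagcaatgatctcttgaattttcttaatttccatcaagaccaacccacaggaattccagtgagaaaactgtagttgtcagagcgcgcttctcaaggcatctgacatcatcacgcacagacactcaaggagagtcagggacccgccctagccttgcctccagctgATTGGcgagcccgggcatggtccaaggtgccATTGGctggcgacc
Npc2: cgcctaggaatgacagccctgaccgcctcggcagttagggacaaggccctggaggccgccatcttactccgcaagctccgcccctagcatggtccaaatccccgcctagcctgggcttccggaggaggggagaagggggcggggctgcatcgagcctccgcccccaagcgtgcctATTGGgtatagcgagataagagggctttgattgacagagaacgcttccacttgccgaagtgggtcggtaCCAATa
In Hmgcs1 the sterol element began 137 bases before the start and stood between CCAAT boxes that began 176 and 45 bases before it, and the other box began at 237 bases. Msmo1 held 3 boxes, at 160, 96 and 55 bases, Mvd held 2 at 60 and 27 bases, and Idi1 held 2 at 45 and 14 bases. Npc2 held 2 boxes as well, at 75 and 6 bases.

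Values are log2 signals relative to the 75th percentile of the same array, so a value of 0 is a signal at that percentile. Since probes differ in brightness, levels are compared between livers and never between genes. The share of probes well above background was 55.8% to 71.2% per array, no spot was saturated, and the probe used for each member was well above background on all 20 arrays. Arrays fell into 2 slide series, set by the scan date in the file headers, and each of the 13 slides lay within 1 series. Series 1 held 6 non-responders and 4 responders, series 2 held 4 non-responders and 6 responders. Every comparison carries the series as a term. The series themselves differed for 5 members after adjustment over all rows: Nsdhl (+0.85 in series 2, SE 0.30, limma adjusted p = 0.0362), Ebp (-0.35, adjusted p = 0.00638), Scap (+0.43, adjusted p = 0.000203), Soat2 (-0.31, adjusted p = 0.0168) and Abca1 (+0.31, adjusted p = 0.0031). The share of all rows that differed between the series was not counted, so this count of members cannot be read as an excess. The hepatocyte markers Alb, Ttr, Tat, Ass1 and Cps1 were above background on every array.

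The first comparison asks whether livers of responders and non-responders differed in these genes. After adjustment over the 17208 rows of the table, no member passed limma's test at an adjusted p of 0.05, and neither did any other row (0.00% called; lowest adjusted p 0.273). At an unadjusted p under 0.05, 1 of 31 members passed, against 7.97% of all rows, or 1372. The fitted difference was above 0 in responders for 21 members and below 0 for 10, with a median of +0.09 on the log2 scale against a median of -0.003 over all rows. The values of the groups overlapped for all 31 members. Without non-responder 10, the liver with the lowest values of many enzymes, 17 of 31 differences were above 0 and their median was 0.0078. With normexp, a model-based background correction, 8 of 31 were above 0 and their median was -0.27.

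Among the mevalonate and isoprenoid steps, 7 of 8 fitted differences were above 0, with a median of +0.26, and none passed the test. Hmgcs1, which makes HMG-CoA, ranged from 2.88 to 5.16 in non-responders, with a median of 3.64, and from 3.44 to 5.47 in responders, with a median of 4.53. Its means were 3.90 ± 0.85 (SD, n = 10) and 4.33 ± 0.77 (SD, n = 10), and 6 of 10 responders were higher than the average non-responder on slides of the same series. The fitted difference was +0.33 (SE 0.34, 95% interval -0.39 to 1.04, limma adjusted p = 0.822), within the spread of the livers. It was +0.13 without non-responder 10, +0.62 with the clock genes Dbp and Arntl as covariates and -0.18 with normexp. Mvk, mevalonate kinase, ran from -1.49 to 0.35 (median -0.67) in non-responders and from -0.78 to 0.18 (median -0.28) in responders. The responder values of Mvk lay inside the non-responder range, and 9 of 10 were higher than that average in their own series. Its difference was +0.36 (SE 0.21, adjusted p = 0.7). Ggps1, which makes geranylgeranyl diphosphate on a side branch, was the exception in sign, at -0.07 (SE 0.06, adjusted p = 0.787). The other mevalonate steps differed by +0.12 (Acat2, which joins acetyl-CoA units), +0.09 (Pmvk), +0.36 (Mvd), +0.26 (Idi1) and +0.26 (Fdps), each smaller than the SD within either group. Acat2 was +0.43 in series 1 and -0.18 in series 2, and Fdps was -0.04 in series 1 and +0.55 in series 2.

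Among the squalene and sterol steps, 7 of 11 differences were above 0, with a median of +0.16, and none passed. Fdft1, squalene synthase, ran from 1.07 to 2.73 in non-responders (median 2.09) and from 1.99 to 2.94 in responders (median 2.42). The single lowest value, in non-responder 5, lay well under every responder, and 8 of 10 responders were higher than the same-series average of non-responders. The difference was +0.30 (SE 0.18, limma adjusted p = 0.699). A much dimmer probe of Fdft1, well above background on 9 arrays, gave -0.07. Sqle, the squalene epoxidase and a known control point of the pathway, ran from -0.67 to 3.33 in non-responders (median 1.96) and from 0.87 to 3.31 in responders (median 2.35). The highest values of the groups were nearly equal, and the lowest differed because of non-responder 10. The fitted difference of Sqle was +0.29 (SE 0.40, adjusted p = 0.861), and it was -0.16 without non-responder 10 and +0.59 with Dbp and Arntl as covariates. Lss, which closes the ring to lanosterol, differed by +0.16 (SE 0.14, adjusted p = 0.777), and by +0.056 without non-responder 10. Of the other probes of Lss, 1 gave -0.06 and had an r of 0.45 with the used one, and 1 gave +0.18 with an r of 0.94.

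The sterol steps after lanosterol showed no common sign. Cyp51 differed by +0.18 (SE 0.25), Msmo1 by +0.22 (SE 0.26), Nsdhl by +0.26 (SE 0.30) and Dhcr7 by +0.14 (SE 0.15). Tm7sf2, a ring reductase, differed by -0.07, Hsd17b7 by -0.13, Ebp, a sterol isomerase, by -0.05 and Sc5d, a desaturase, by -0.02. A dimmer probe of Sc5d gave +0.21. Cyp51, Hsd17b7, Tm7sf2, Ebp and Sc5d had opposite signs in the series. Series 1 and series 2 gave -0.18 and +0.55 for Cyp51 and -0.34 and +0.07 for Hsd17b7. They gave -0.17 and +0.03 for Tm7sf2, +0.05 and -0.15 for Ebp, and +0.17 and -0.20 for Sc5d. None of these 8 enzymes came near the threshold, with limma adjusted p of 0.825 to 0.976.

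Of the 4 control genes, 2 differences were above 0 and 2 below. Insig1 had the second smallest unadjusted p among members. It ran from 0.01 to 0.75 in non-responders (median 0.47) and from 0.43 to 0.99 in responders (median 0.56), so the groups overlapped between 0.43 and 0.75, while 9 of 10 responders were higher than the same-series average of non-responders. Its difference was +0.20 (SE 0.10, 95% interval -0.004 to 0.40, unadjusted p = 0.0546, limma adjusted p = 0.638). The series gave +0.31 (SE 0.16) and +0.09 (SE 0.10), and a dimmer probe of Insig1 gave +0.07. Srebf2 itself differed by -0.10 (SE 0.14, adjusted p = 0.862), with -0.30 in series 1 and +0.09 in series 2. Scap differed by +0.02 (SE 0.07) and Insig2 by -0.16 (SE 0.29), the latter with a wide interval of -0.76 to 0.44. Series 1 and series 2 gave opposite signs for Insig2 (-0.59 and +0.27) and for Scap (+0.08 and -0.04).

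Of the 8 transport and storage genes, 5 differences were above 0 and 3 below, with a median of +0.04. Soat1, which esterifies cholesterol with fatty acids and in liver is found largely outside hepatocytes, was the member with the smallest p. It ran from -1.38 to -0.32 in non-responders (median -1.12) and from -1.83 to -1.01 in responders (median -1.29), and 8 of 10 responders were lower than the same-series average of non-responders. The difference was -0.26 (SE 0.12, 95% interval -0.50 to -0.01, unadjusted p = 0.0432), and it missed the threshold over all rows (limma adjusted p = 0.618). The other 2 probes of Soat1 differed by -0.18 and -0.21. Without non-responder 4, the highest liver for this gene, the difference was -0.19. Soat2, the hepatocyte enzyme of the same reaction, differed by +0.17 (SE 0.09, adjusted p = 0.689). Bulk liver cannot tell fewer cells of a type from less RNA per cell. The summed signal of 6 Kupffer cell markers was highest in non-responder 4 as well, and its part in the Soat1 difference was not tested.

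The remaining named transport genes moved little. Scarb1, the receptor that takes up cholesteryl ester from HDL, ran from 4.58 to 4.94 in non-responders and from 4.36 to 5.01 in responders, with a difference of +0.02 (SE 0.08, 95% interval -0.15 to 0.18, limma adjusted p = 0.963). The non-responder range of Scarb1 lay wholly inside that of responders. Abca1, which loads cholesterol onto nascent HDL, differed by -0.08 (SE 0.07, adjusted p = 0.789), with -0.18 in series 1 and +0.01 in series 2. Stard4 differed by +0.07 (SE 0.16), with +0.34 in series 1 and -0.20 in series 2. Npc1 differed by +0.06 (SE 0.10), Npc2 by -0.10 (SE 0.12) and Lcat by +0.07 (SE 0.07). Series 1 and series 2 also gave opposite signs for Scarb1 (+0.11 and -0.08), Npc1 (-0.07 and +0.19) and Npc2 (+0.02 and -0.23).

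**Figure D1:**
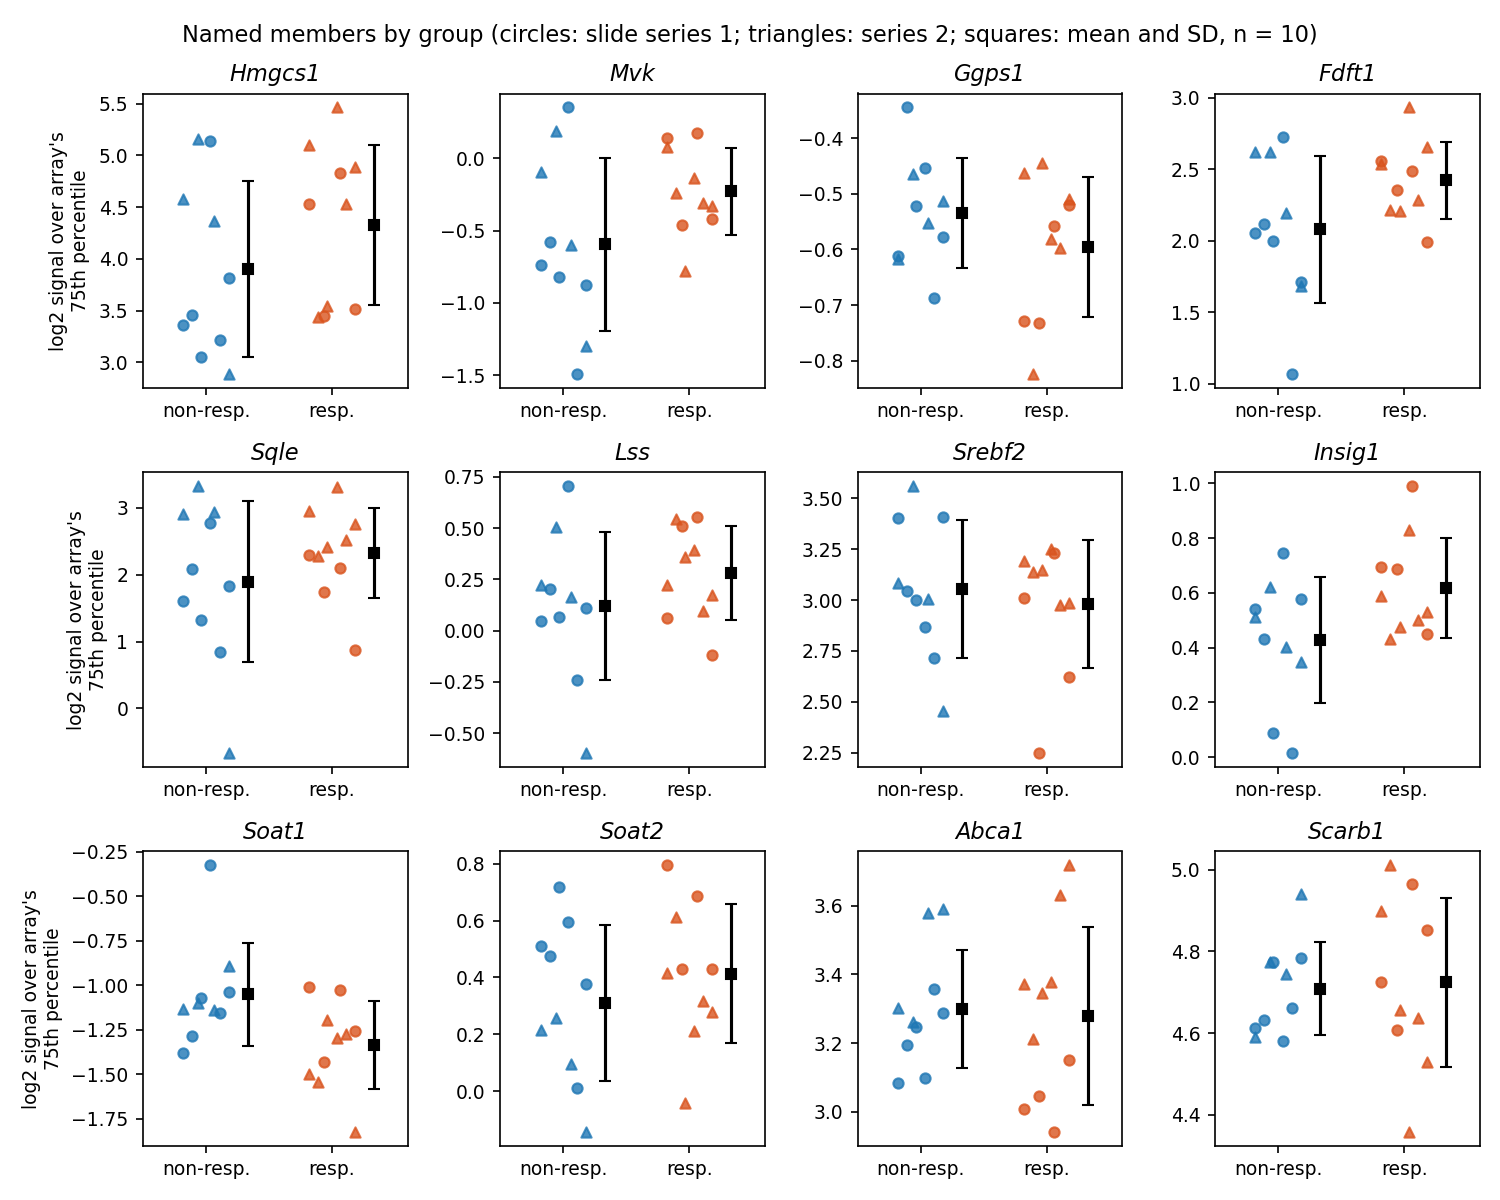
Log2 signal over the array's 75th percentile for 12 named members in non-responder and responder livers; each point is a liver, circles are slide series 1, triangles series 2, and the square with bars is the mean with SD, n = 10. The groups overlap in every panel, and non-responder 10 is the lowest point for Sqle at -0.67.

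The second question was how far the members varied from liver to liver, whatever the group. Sqle spread most, from -0.67 in non-responder 10 to 3.33 in non-responder 8, a ratio of 16.0 between the highest and lowest liver. The ratio was 7.43 for Mvd, which decarboxylates mevalonate diphosphate, 6.88 for Fdps, which makes farnesyl diphosphate, 6.00 for Hmgcs1 and 5.83 for Idi1, the isomerase of isopentenyl diphosphate. Cyp51, the lanosterol demethylase, gave 5.11 and Nsdhl, a sterol dehydrogenase, 5.09. The SD of Sqle within series stood at percentile 97.3 of all rows, and 9 of 31 members stood above the 90th percentile. At the other end, the ratio was 1.39 for Ggps1, 1.58 for Scarb1, 1.61 for Lcat, which esterifies cholesterol on HDL, and 1.72 for Abca1. These 7 enzymes were the members whose highest liver exceeded the lowest by over 5-fold.

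Single livers set the ends of these ranges. Non-responder 10 was the lowest of all 20 livers for 13 members, 11 of them enzymes, and non-responder 5 was the lowest for 6 members. Responder 10 was among the 5 lowest livers for 12 of 19 enzymes, as were non-responders 5 and 10 for 16 each. Non-responder 8 was the highest for 6 members and non-responder 4 for 5, and each was among the 5 highest livers for 14 of 19 enzymes. For 17 of 19 enzymes the SD was larger among non-responders than among responders, and for 14 of 19 without non-responder 10, a description with no test. For the transport genes it was 3 of 8, and 2 of 8 without that liver. The share over all rows was not computed, so these counts do not show a trait of the enzymes. The SDs pool the slide series, and many enzymes vary together, so they are not separate observations. Without non-responder 10 the ratio fell to 5.58 for Sqle, 2.90 for Fdps and 2.52 for Cyp51, while it stayed at 5.33 for Hmgcs1 and 6.07 for Mvd. Insig2, the Insig form that does not depend on SREBP2, had its highest values, 6.05 to 6.19, in non-responders 5, 6 and 8. Its lowest value, 4.18, was in non-responder 10.

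**Figure D2:**
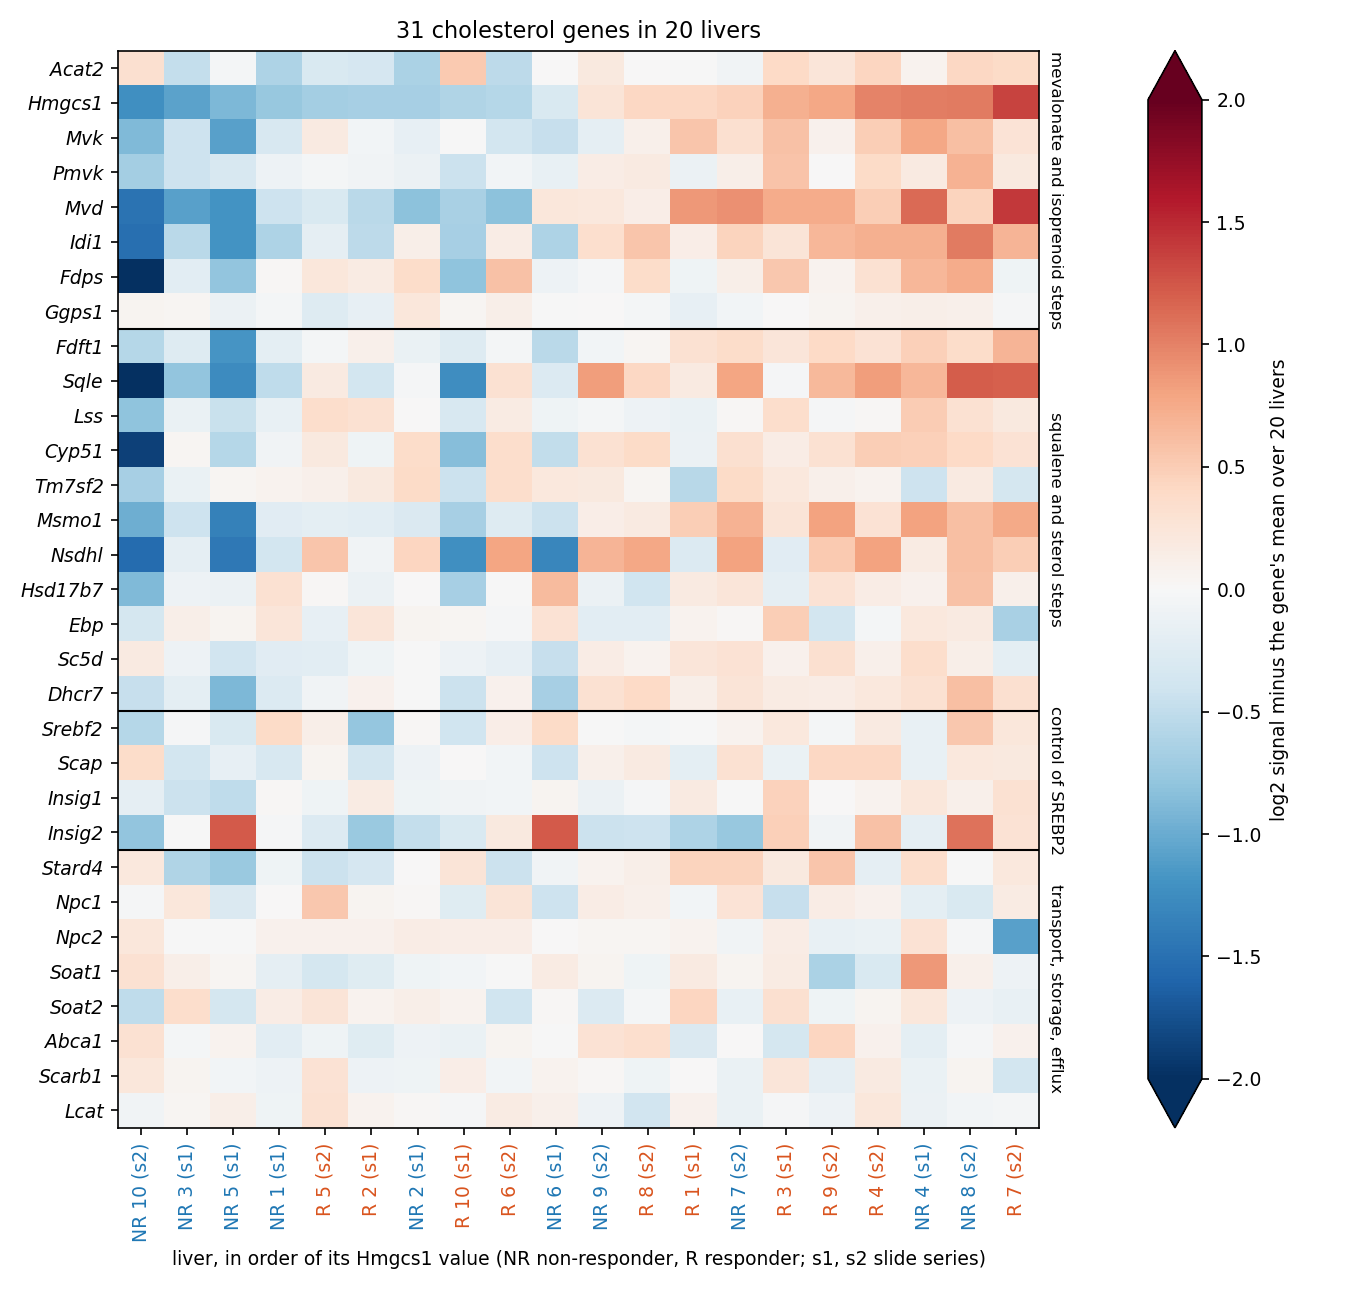
Log2 signal of the 31 members (rows, by role) in the 20 livers (columns, in order of Hmgcs1), as the difference from the gene's mean over the livers; blue column names are non-responders, orange are responders, and s1 and s2 are the slide series. Mvd, Idi1, Sqle and Msmo1 pass from blue to red with Hmgcs1, and Sqle in non-responder 10 lies past the end of the colour scale at a log2 signal of -0.67.

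The third question was which members rose and fell together with Hmgcs1 across the 20 livers. Each row of the table was fitted on the Hmgcs1 value of the same array with slide series as a term. Of the other 30 members, 9 passed limma's test with a positive slope after adjustment over all rows, against 1.35% of all rows, or 233 of 17207. No member passed with a negative slope, against 252 of the 17207 rows. Arrays share their depth and labelling, and the adjacent steps of a pathway are chosen for their function, so the r values are given as a description. The median r of the members was 0.46 against 0.02 over all rows, whose 5th and 95th percentiles were -0.55 and 0.56, and 13 members lay above the latter. With the 10 arrays of a slide series alone, Mvd was the 1 member that passed in each series, and the r values by series are given below. With normexp, which put the fitted background under minus the offset on 6 arrays, 24 members passed together with 5673 rows.

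Of the mevalonate steps, 4 of 7 followed. Mvd had the highest r of all 17207 rows, at 0.93 (slope 1.00, SE 0.09, limma adjusted p = 1.31e-05), with 0.96 in series 1 and 0.92 in series 2. It ran from -1.79 to 0.83 in non-responders (median -0.40) and from -1.12 to 1.11 in responders (median 0.01), with its lowest value in non-responder 10 and its highest in responder 7, as for Hmgcs1. Idi1 had an r of 0.86 and ran from 2.25 to 4.79 in non-responders (median 3.54) and from 3.09 to 4.46 in responders (median 3.95). Mvk had an r of 0.82 and Pmvk, phosphomevalonate kinase, 0.79. These 4 genes and Hmgcs1 are consecutive or neighbouring steps from HMG-CoA to the isoprenoid unit. Fdps (0.56) and Acat2 (0.54) had positive r values that did not pass, and Ggps1 stood at 0.17. The probe of Acat2 also lists an accession of its near-identical neighbour Acat3, so its values may mix both genes.

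Of the squalene and sterol steps, 4 of 11 followed. Msmo1, the sterol C4 oxidase, ranked 3 of all rows with an r of 0.87 (slope 0.64, SE 0.09, limma adjusted p = 0.00122). It ran from 3.38 in non-responder 5 to 5.54 in responder 9, and its highest non-responder value, 5.53, was close to that. Sqle followed with 0.78 and the largest slope of these, 0.91 (SE 0.17, adjusted p = 0.0116), Fdft1 with 0.78 and Dhcr7, which performs a last reduction of the ring, with 0.70. The call of Dhcr7 (limma adjusted p = 0.0354) was lost without the filter on dim probes (0.0755), with group as a term (0.0572), with the mean of all probes (0.0602), and without non-responder 1, 4, 8 or 10 or responder 1, 3, 5 or 6. Cyp51 (0.58), Lss (0.57), Nsdhl (0.46), Hsd17b7 (0.46) and Sc5d (0.45) did not pass. Ebp and Tm7sf2, also enzymes of ring trimming, stood at 0.13 and -0.05. Within the list, then, the members that passed came from both early and late steps.

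Of the control genes, Insig1, itself a known SREBP2 target, followed (r = 0.72, slope 0.21, SE 0.05, limma adjusted p = 0.0326). That call did not hold without non-responder 3 or 4 or without responder 1, 3, 6 or 7, with r between 0.69 and 0.76 over all arrays left out in turn. It was also lost without the filter on dim probes (limma adjusted p = 0.0755), with group as a term (0.0535), and with Idi1 (0.399) or Sqle (0.598) in place of Hmgcs1. In each of the first 2 of these settings 7 of the 9 members still passed, those other than Dhcr7 and Insig1. Srebf2, Scap and Insig2 had r values of 0.40, 0.32 and 0.24. None of the 8 transport genes passed, and their median r was -0.26. Stard4, a sterol carrier and known SREBP2 target, had the highest, 0.56, with 0.76 in series 1 and 0.37 in series 2. The lowest r values were those of Npc1 (-0.40) and Npc2 (-0.39), which together bring cholesterol out of lysosomes, Scarb1 (-0.32) and Lcat (-0.26). For Npc2 the sign differed between series, at 0.68 in series 1 and -0.67 in series 2. Responder 7 had a low Npc2 value of 1.76, and without responder 7 and non-responder 10 the r was 0.03.

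**Figure D3:**
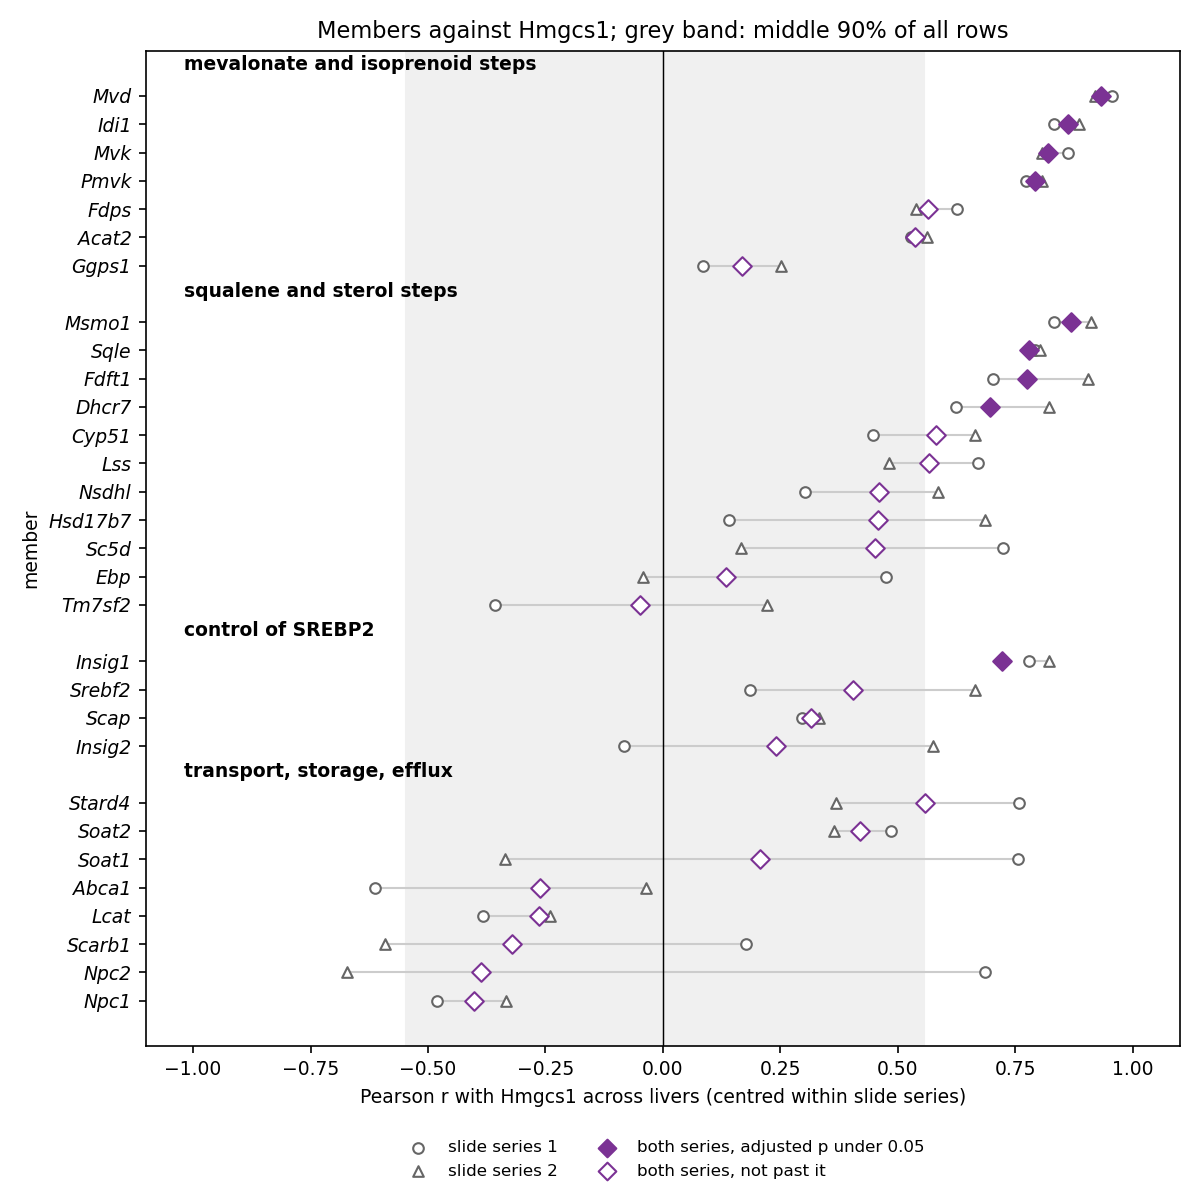
Pearson r of 30 members with Hmgcs1 across 20 livers, grouped by role; diamonds are both slide series together (filled where the adjusted p is under 0.05), circles and triangles are series 1 and series 2 alone, and the grey band spans the 5th to 95th percentile of all rows, -0.55 to 0.56. The 9 filled diamonds run from Dhcr7 at 0.70 to Mvd at 0.93, and none is a transport gene.

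A set of 10 pairs with Hmgcs1 was also tested by permuting arrays within slide series, 100000 times and two-sided, with p-values adjusted over the 10 pairs. With Sqle, Pearson's r was 0.78 (permutation p = 1.0e-05, the smallest the permutations can give, adjusted 1.0e-04) and Spearman's rho 0.88 (adjusted permutation p = 1.0e-04). With Idi1 they were 0.86 and 0.85 (adjusted permutation p = 1.0e-04 for both), and with Insig1 0.72 and 0.80 (adjusted permutation p = 4.3e-04 and 1.7e-04). With Stard4 r was 0.56 and rho 0.59 (adjusted permutation p = 0.03 and 0.0153). Without the livers farthest from the Hmgcs1 median, responder 7 and non-responder 10, r was 0.79 for Sqle, 0.86 for Idi1, 0.70 for Insig1 and 0.70 for Stard4.

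Srebf2 gave an r of 0.40 (permutation p = 0.0816, adjusted 0.136) and 0.21 without those livers, and the latter value is the lower. Scarb1 gave -0.32 (adjusted permutation p = 0.283) and -0.03 without them. Srebf1, whose product chiefly drives fatty acid synthesis, gave 0.02 (adjusted permutation p = 0.92), with 0.30 in series 1 and -0.42 in series 2. The clock genes Dbp (-0.27, adjusted permutation p = 0.342) and Arntl (0.18, adjusted permutation p = 0.519) did not pass. Their signs also differed between series 1 and series 2, at 0.08 and -0.54 for Dbp and -0.19 and 0.45 for Arntl. Igfbp1, a fasting and insulin responsive gene, gave an r of -0.46 (adjusted permutation p = 0.0792) and a rho of -0.58 (adjusted permutation p = 0.0153), so the measures fell on different sides of the threshold.

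The Hmgcs1 values left a gap between 3.82 and 4.37, with 10 livers on each side (6 non-responders and 4 responders below, 4 and 6 above). Within the lower and upper 10 livers, r with Hmgcs1 was 0.86 and 0.64 for Mvd, 0.62 and 0.76 for Idi1, 0.72 and 0.69 for Sqle, 0.51 and 0.55 for Msmo1 and 0.65 and 0.74 for Insig1. For Dhcr7 it was 0.19 and 0.27, and for Stard4 0.12 and -0.21. For Sc5d it was -0.59 and -0.41. Most of these genes had been chosen by their r over the same 20 livers, so the values are a description of the range.

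Enzymes also paired closely with each other. Over the 171 pairs of 19 enzymes the median r was 0.54, with 55.0% above 0.5, against a median of 0.005 and 4.58% above 0.5 over pairs of every 10th row of the table. The median over the 28 pairs of transport genes was -0.05. The closest of all 465 pairs was Cyp51 with Nsdhl (0.95, with 0.93 and 0.99 in the series), followed by Fdft1 with Msmo1 (0.94), Fdps with Cyp51 (0.94) and Idi1 with Sqle (0.92). Cyp51, Nsdhl and Fdps were thus closer to each other than to Hmgcs1. Without non-responder 10 the r of Fdps with Sqle moved from 0.88 to 0.66 and that of Sqle with Cyp51 from 0.92 to 0.71, while that of Cyp51 with Nsdhl was 0.91 and the median over enzyme pairs 0.48. The lowest of all pairs was Acat2 with Npc1, at -0.73.

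The fourth question was whether members followed Hmgcs1 to a different degree in the groups. No member's slope differed between groups after adjustment (0.00% of all rows called, lowest limma adjusted p 0.987). At an unadjusted p under 0.05, 5 of 30 members had a smaller slope in responders, against 1.69% of all rows, or 290, and none had a larger one. For Lss the slope was 0.43 in non-responders and -0.03 in responders (difference -0.46, SE 0.12, unadjusted p = 0.0015), and the r values were 0.95 and -0.09. For Fdps the slopes were 0.85 and 0.01 (difference -0.86, SE 0.26, unadjusted p = 0.0048), and the r values 0.86 and 0.02. Sqle (-0.82), Idi1 (-0.44) and Mvk (-0.35) were the others. Mvd had slopes of 1.05 and 0.95 (difference -0.10, SE 0.19). The slopes of a further Lss probe, which had an r of 0.45 with the used one, were not fitted.

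Single livers moved this count: it was 3 without non-responder 8 or responder 7, 9 without non-responder 4 or responder 3, and 4 without non-responder 10. In non-responders without number 10, r with Hmgcs1 was 0.91 for Lss and 0.75 for Fdps. None of these slope differences passed after adjustment over the table.

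**Figure D4:**
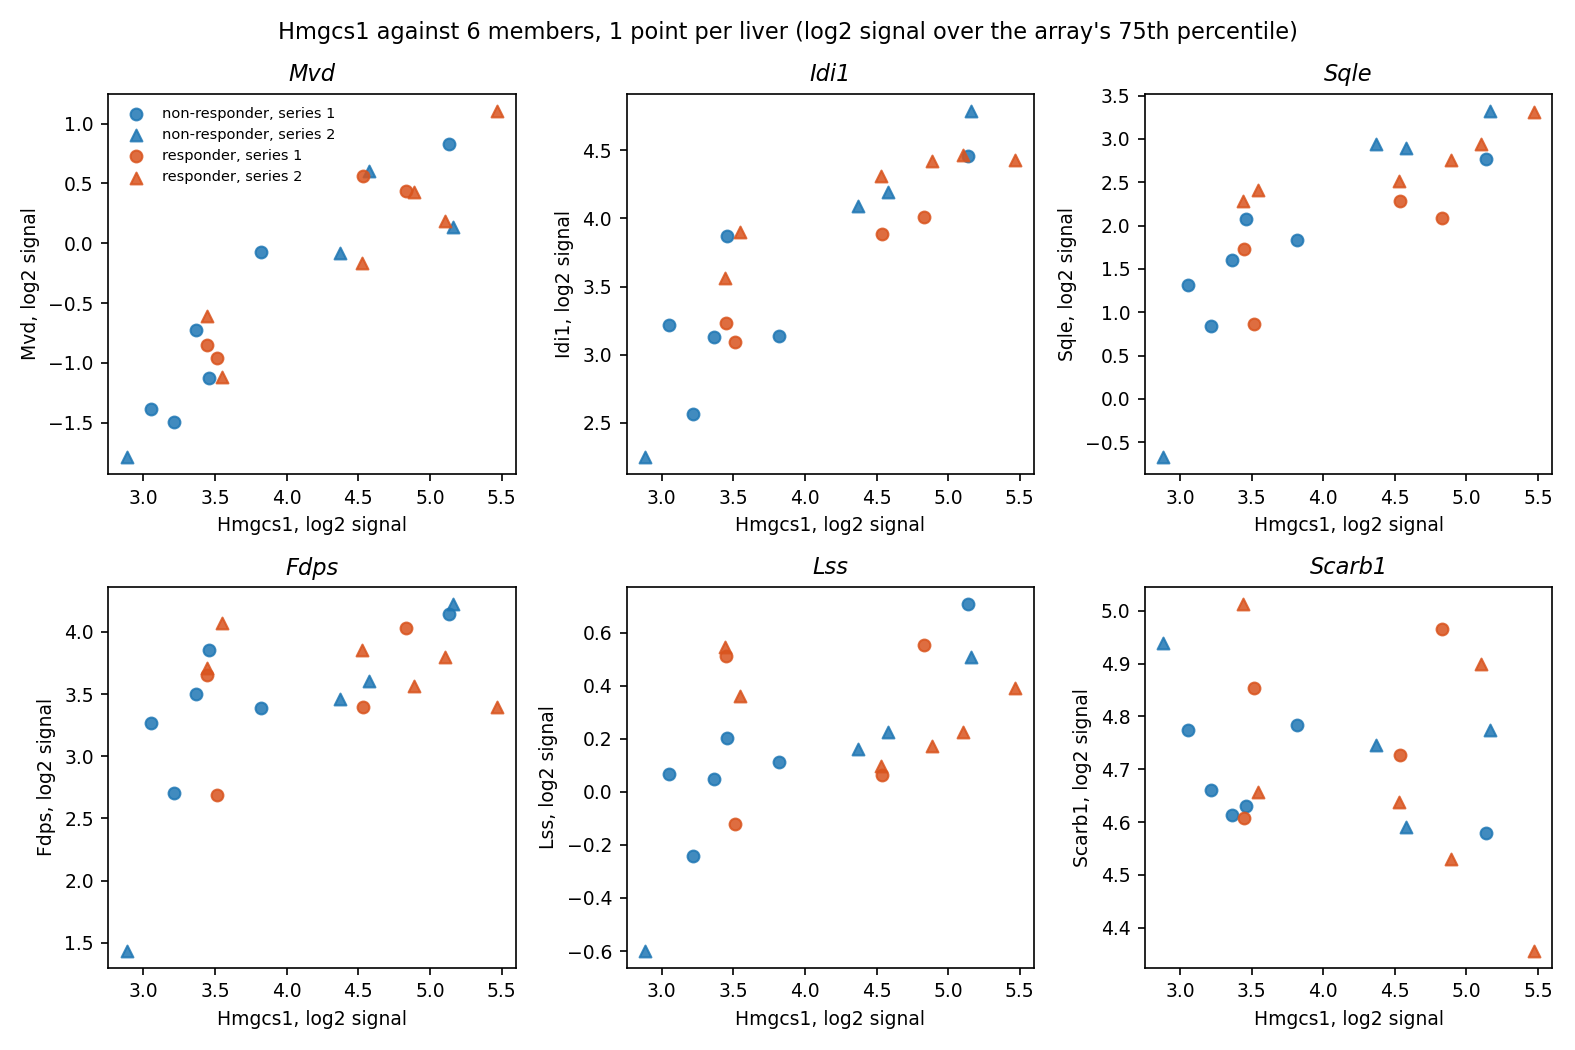
Log2 signal of Hmgcs1 (horizontal) against Mvd, Idi1, Sqle, Fdps, Lss and Scarb1 (vertical), a point per liver; blue is non-responder, orange responder, circles slide series 1 and triangles series 2. Mvd and Idi1 rise along Hmgcs1 in both groups (r 0.93 and 0.86), Fdps and Lss do so in non-responders (0.86 and 0.95) and not in responders (0.02 and -0.09), and Scarb1 has no rising trend (-0.32).

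Other genes of sterol handling set the members in context. Of 13 measured genes of SREBP processing and sterol handling outside the list, 1 followed Hmgcs1 upward and 1 downward. Over all 17207 rows, 233 followed it upward and 252 downward. Rdh11, a retinol dehydrogenase and known SREBP target, rose with it (r = 0.84, limma adjusted p = 0.00298). Por, the reductase that supplies electrons to Cyp51 and Sqle, fell with it (r = -0.70, adjusted p = 0.029). Srebf1 had an r of 0.02, with opposite signs in the series. None of 13 genes of LXR targets, sterol export and bile acid synthesis passed in either direction, with a median r of 0.02, and Cyp7a1, the rate-limiting enzyme of bile acid synthesis, stood at -0.10. None of 13 fatty acid synthesis genes passed either, with a median r of -0.11: Fasn stood at 0.53 and Scd1 at -0.54. In none of these 3 lists did a gene pass the group comparison after adjustment.

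Clock and fasting genes were read for the state of the livers. Of 11 clock genes, 2 fell with rising Hmgcs1, Per1 (r = -0.66, limma adjusted p = 0.0419) and Per2 (-0.70, adjusted p = 0.0306), and the median r was -0.54. Over all 17207 rows, 252 fell with rising Hmgcs1 after adjustment. None of 7 fasting and PPARA response genes passed, with r from -0.46 to 0.18. In the group comparison 6 of these 7 were lower in responders and 1 higher, with a median of -0.61, and none passed after adjustment. At an unadjusted p under 0.05, 2 of the 7 passed, against 7.97% of all rows: Igfbp1 (-1.56, limma adjusted p = 0.346) and Cyp4a14 (-1.58, limma adjusted p = 0.626). With Dbp and Arntl as covariates 10 members followed Hmgcs1. These covariates had r of only -0.27 and 0.18 with Hmgcs1, and Per1 and Per2 were not used, so this fit cannot settle the part of clock state. Whether the hour of collection or the feeding state has a part in the spread of the members or in their group differences was not tested.

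Markers of other cells and of hepatocytes were read in the same way. Of 5 hepatocyte markers, 2 fell as Hmgcs1 rose, Cps1 (r = -0.74, limma adjusted p = 0.0234) and Tat (-0.68, adjusted p = 0.0354), while Alb had an r of 0.14. The count falling over the whole table was 252 of 17207 rows. None of the markers of Kupffer cells (6), endothelium (4), stellate cells (4), cholangiocytes (4), fat (3), pancreas (5) or lymphocytes (3) passed. The summed Kupffer signal ran from 4.78 to 5.80 in responders and from 5.04 to 6.37 in non-responders, and its r with Hmgcs1 was 0.83 in series 1 and -0.10 in series 2. The summed pancreas signal ran from -1.68 to 7.49 in responders and from -0.93 to 7.41 in non-responders, with an r of 0.04 and 0.62 in the series. All 3 fat markers that passed the filter were lower in responders at an unadjusted p under 0.05, which 7.97% of all rows passed in either direction. None of the 3 passed after adjustment, with limma adjusted p of 0.599 (Adipoq), 0.490 (Plin1) and 0.513 (Cidec). The Plin1 probe was well above background on only 11 arrays. The summed signal of the 4 listed fat markers, with no filter, ran from -0.77 to 1.88 in responders and from 0.31 to 3.10 in non-responders. The part of these tissues in the members' values was not tested; with the fat marker Adipoq as a covariate the difference of Soat1 was -0.17 against -0.26, and those of Insig1 (+0.22), Fdft1 (+0.39) and Mvk (+0.44) were larger than without it. No member passed an unadjusted p of 0.05 in that fit.

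Outside the list, the 10 named genes whose pattern across the 20 livers was most like that of Hmgcs1, by r within slide series, were Cldn2 (0.86), Rdh11 (0.84), Prrg2 (0.84), Tinf2 (0.83), Dcst1 (0.81), Ifi35 (0.81), Pold2 (0.81), Aox1 (0.80), Prorsd1 (0.79) and Irgm1 (0.79). All 10 passed limma's test after adjustment over all rows, with adjusted p from 0.00215 for Cldn2 to 0.0419 for Prorsd1. These genes were picked by r over the same 20 livers, so their passing was nearly fixed by the choice and is no separate evidence. Mvd, Msmo1 and Idi1 ranked above all of them. For Dcst1 the sign turned in the authors' deposited table of processed values, where r was -0.25, and with normexp, where it was -0.54. Without the filter on dim probes the calls of Prrg2 and Prorsd1 were lost. That of Prorsd1 was also lost with the mean of all probes, and those of Tinf2 and Pold2 with normexp. With the arrays of a slide series alone, none of the 10 passed in series 1, and Cldn2 alone passed in series 2.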

How the data were processed

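RNA of 20 livers was labelled with Cy3 and hybridised to 1-colour Agilent arrays, and spot intensities were deposited as scanner output made with Agilent Feature Extraction (version 10.5.1.1 per the file headers, 9.1 per the submitters' processing notes). Per the file headers, the processed intensity is background-subtracted. Here, log2 of that intensity minus each array's 75th percentile was taken. Control spots and flagged outliers were left out, spots of a probe were averaged, a probe was kept if the scanner software called it well above background on 5 or more arrays of either group, and the brightest probe stood for a gene. The authors' deposited table of processed values was used as an alternative. Positions of probes within exons or UTRs were not analysed here.

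Differences, slopes on Hmgcs1 and their interaction with group were fitted with limma 3.58.1 (R 4.3.3; lmFit, eBayes) over all 17208 rows with slide series as a term, and p-values were adjusted by Benjamini-Hochberg over all rows; scripts were tested on simulated data. The members and lists were chosen with earlier results of these data known. Genes were named by a rule: the 8 smallest unadjusted p plus Hmgcs1, Sqle, Insig1, Srebf2 and Scarb1 for the group comparison, and the 8 highest and 4 lowest r for co-variation, with 10 genes outside the list; others named in the text were chosen after their values were seen. Where a gene had several kept probes (18 members), 21 of 27 further probes had an r above 0.5 with the used one, and 3 differed in the sign of the group difference. The number of arrays limits the precision.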

Additional observations from a re-analysis of the deposited data

Results flagged for a closer look

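In 7 of the 62 sets formed by a member and a group of 10 livers, the highest or lowest liver stood apart by Dixon's ratio of gap to range. For a single set of normal values the cutoff is passed in about 1 of 20 cases. These sets are not independent, since members vary together and share livers, and they pool both slide series. The share over all rows was not computed, so the count cannot be read as an excess. Cyp51 was lowest in non-responder 10, at -0.89 against 0.39 in the next liver, and lowest among responders in responder 10, at 0.12 against 0.86. Responder 10 was also apart for Fdps, at 2.69 against 3.39, and for Nsdhl, at 0.62 against 1.59. Non-responder 10 was apart for Hsd17b7, a sterol reductase, at 2.60 against 3.36. Npc2 was lowest in responder 7, at 1.76 against 2.70, the widest gap for its range of the 7. Soat1 was highest in non-responder 4, at -0.32 against -0.89.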

How the results depend on the processing

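No member passed an adjusted p of 0.05 in the group comparison under any alternative run. For a slope that differed between groups, the alternatives fitted were quantile normalization, plain subtraction and single livers left out. No member passed in those either. At an unadjusted p, the group comparison called 0 members with normexp, quantile normalization, the deposited table, mean of all probes, plain subtraction (added after seeing the data), series 1 alone or Adipoq as a covariate, 2 with trended robust variance or with Dbp and Arntl as covariates, and 3 with the replicate block. With single livers left out it called 0 to 3: 0 without non-responder 7, 9 or 10 or responder 2, 4 or 9, 2 without non-responder 6 or 8, and 3 without non-responder 4 or responder 6. Smaller slopes in responders ranged from 3 to 9. The count of members following Hmgcs1 was 7 to 10 with livers left out, 24 with normexp, 1 in each series alone and 0 with the replicate block. The labels do not say that replicate numbers pair the samples, and the values cannot settle it. The r of deviations ran from -0.23 to 0.59 over the 10 pairs, with a median of 0.20. It was over 0.1 in 6 of 10 pairs, and 3 of 10 responders were closest to their own number. The block is therefore given as an alternative only. Over all rows, positive followers (233) numbered 5673 with normexp, 68 without the filter, 380 without the series term, 2 and 7 in the series alone, 3 with the replicate block, 1163 with array weights, 118 with group as a term, 20 and 18 with Idi1 and Sqle in place of Hmgcs1, and 67 to 790 with livers left out, with 67 to 144 without non-responder 1, 3, 4 or 8 or responder 1, 3, 4, 5 or 6, 467 without responder 10 and 790 without non-responder 10. The cause was not tested. On 6 arrays the normexp fit put the background under minus the offset of 50.

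The following values turned in sign. With normexp the differences were -0.015 (Fdft1), 0.071 (Ggps1), -0.18 (Hmgcs1), -0.066 (Sqle) and -0.48 (Scarb1), and r was 0.45 (Npc1), 0.42 (Npc2), 0.60 (Scarb1), 0.57 (Lcat) and -0.54 (Dcst1, and -0.25 in the deposited table). Series 2 alone gave 0.0098 (Abca1), 0.089 (Srebf2) and -0.080 (Scarb1), and series 1 alone r of 0.68 (Npc2) and 0.18 (Scarb1). The replicate block gave -0.018 for Scarb1 and r of 0.28 (Scarb1) and 0.43 (Lcat). Dbp and Arntl as covariates gave 0.00098 for Srebf2, and Sqle as the reference gene gave r of 0.021 for Npc1. With livers left out, Scarb1 ran from -0.019 to 0.053 and Sqle from -0.16 to 0.45. Idi1 has no value in the deposited table as used here.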
